A study of Mus musculus with 5 samples.

Results

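Among the droplets sequenced from 3T3-L1 cultures on day 6 of adipocyte differentiation, 2424 of the 21895 cell barcodes in the whole series held few molecules and almost no Malat1 RNA. They were chosen by 4 measured values: at least 500 detected genes, at most 20% of unique molecular identifiers (UMIs, each standing for 1 captured RNA molecule) from genes encoded in mitochondrial DNA (mt- genes), fewer than 10000 UMIs, and Malat1 below 1% of UMIs. Of these barcodes 842 came from the untreated day 6 library and 1582 from the day 6 library treated with P-G3. They are called small barcodes here (low-UMI, Malat1-poor in the plots), and the 1541 and 1881 day 6 barcodes with 10000 or more UMIs are called large cells. 3T3-L1 is a mouse fibroblast line that turns into adipocytes when confluent cultures receive dexamethasone, insulin and isobutylmethylxanthine, as all day 6 cultures did, followed by medium with insulin. P-G3 is a polycationic PAMAM polymer, given at 10 µg/mL from the start of induction. Cells were freed with trypsin and captured with the 10x Genomics Chromium 3' chemistry, which reads the poly(A) end of each RNA. Each of the 5 groups (day 0, day 3 with and without P-G3, day 6 with and without P-G3) is 1 library, so nothing here has a replicate check or a p-value, and intervals are 95% and cover counting error only.

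Background helps in reading the lists that follow. Malat1 and Neat1 RNAs stay in the nucleus. RNAs for collagens, laminins, lysosomal enzymes and other proteins that enter the secretory pathway are translated on ribosomes bound to the endoplasmic reticulum (ER), while RNAs for ribosomal proteins, proteasome subunits and fatty acid binding protein 4 (Fabp4) are translated on free ribosomes in the cytosol. Mitochondrially encoded RNAs lie inside mitochondria. Fibroblasts also carry a small set of RNAs, among them Rab13, Net1, Kif1c, Ddr2 and Cyb5r3, that are known to gather in thin cell protrusions.

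The small barcodes made up 34.1% (exact interval 32.2 to 36.0) of the untreated barcodes that met the limits on genes and mt- UMIs, and 44.6% (43.0 to 46.3) with P-G3. They held 2.35% and 3.83% of the UMIs of those barcodes. Far fewer barcodes met the rule in the other libraries: 26 on day 0, and on day 3 a total of 186 without and 212 with P-G3. Their median was 1762.5 UMIs and 785 genes in the untreated library and 1830 UMIs and 803 genes with P-G3, against 54694 UMIs and 6470 genes, and 53619 UMIs and 5857 genes, in the large cells. Their UMIs summed to 2078398 and 4112902, so that 3 counts stood for 1.44 and 0.729 CPM (a gene's UMIs scaled to a total of 1000000 UMIs in the summed class). At the edge of the rule, the largest small barcodes had 9988 and 9925 UMIs and the smallest large cells 10001 and 10005. The highest Malat1 share inside was 0.843% and 0.906%, and the lowest outside 1.06% and 1.02%. For mt- UMIs the values were 20% and 19.9% inside and 20.2% and 20.1% outside, and for detected genes 500 inside and 499 outside in both libraries. The day 6 libraries shared 6 barcode sequences, none of them a small barcode in both.

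The name of these barcodes holds for their summed RNA, but the cut on Malat1 by itself does not set them apart. Malat1 was below 1% of UMIs also in 84.5% and 91.2% of large cells, where its median share was 0.215% and 0.197%. Summed over barcodes, Malat1 lay at 393 CPM in the small barcodes and 4690 CPM in the large cells of the untreated library, and at 465 and 3516 CPM with P-G3. These levels were partly chosen by the rule and are given as a description. Neat1, another nuclear RNA, was not itself part of the rule and lay at 28.4 against 221 CPM and at 39.4 against 92.0 CPM. Its level is still tied to the rule. The low-UMI barcodes that the Malat1 cut left out held Neat1 at 4416 and 2382 CPM, and large cells had no such cut.

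The markers given for these barcodes, Fabp4, Lars2 and Cidec, fell into different patterns. Fabp4, the fatty acid binding protein of adipocytes, lay at 34169 CPM in small barcodes and 22694 CPM in large cells without treatment, and at 30591 and 28971 CPM with P-G3. Cidec, a lipid droplet fusion protein, lay at 675 and 598 CPM, and at 693 and 509 CPM. Both were higher in the small barcodes of both libraries, by less than 2-fold. The order depends on which large cells are taken. In large cells of 60000 or more UMIs, Cidec lay at 751 CPM untreated and Fabp4 at 33555.5 CPM with P-G3, above the small barcodes. Fabp4 untreated (27378 CPM) and Cidec with P-G3 (594 CPM) stayed below them. Lars2, annotated as the mitochondrial leucyl-tRNA synthetase, lay at 3085 against 129 CPM and at 1526 against 62.3 CPM, over 20 times higher. Its level was lower at higher UMIs in both classes, so the gap is smaller at the border between them. In small barcodes of 5000 to 10000 UMIs it lay at 1147 and 510 CPM, and in large cells of 10000 to 30000 UMIs at 417 and 106 CPM. Lars2 reads are uncertain as a measure of that gene, because its longest transcript shares an identical run of 52 bases (positions 3278 to 3329 of 3894) with the separate gene model Gm15564.

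The other genes with a large excess in the small barcodes were gene models in the ribosomal DNA region of chromosome 17, and their annotated sequences overlap. No reads were examined, so these sequences do not show which stretch was counted. Gm42418 and AY036118 are annotated on opposite strands, and all 923 bases of AY036118 are the reverse complement of positions 156 to 1078 of the 1831 bases of Gm42418. Below, positions 136 to 215 of the Gm42418 transcript and the last bases of AY036118 (864 to 923) are given 5′ to 3′ from GENCODE vM21 (GRCm38), with the 60 bases that pair with each other in capitals. Whether strand was used in counting is not given in the sources used here, and without it reads of this pair cannot be told apart.
Gm42418: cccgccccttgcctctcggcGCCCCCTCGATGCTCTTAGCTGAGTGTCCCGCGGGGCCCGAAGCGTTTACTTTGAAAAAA
AY036118: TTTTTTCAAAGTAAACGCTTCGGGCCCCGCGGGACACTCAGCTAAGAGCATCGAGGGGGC

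Gm42418 lay at 44569 CPM in the small barcodes and 4645 CPM in the large cells of the untreated library, and at 33834 and 4740 CPM with P-G3. AY036118 lay at 1193 against 32.0 CPM and at 630 against 19.1 CPM. The list of ribosomal RNA-like loci, to which Lars2 also belongs, summed to 4.89% of UMIs in small barcodes and 0.485% in large cells without treatment, and to 3.6% and 0.485% with P-G3. Of the 5 such loci found in the files 4 were measured, and Gm26917 was the exception, lower in both libraries. Within the small barcodes the share was lower at higher UMIs. It was 9.38% between 500 and 1000 UMIs and 2.54% between 5000 and 10000 UMIs in the untreated library, and 7.99% and 1.71% with P-G3. In large cells of 10000 to 30000 UMIs it was 1.55% untreated and 0.581% with P-G3. Barcodes under 500 genes, outside the rule, held 10.8% and 7.58%. Barcodes rich in Malat1 below 10000 UMIs (85 and 83), also outside the rule, held 9.93% and 6.64%, with Lars2 at 4980 and 2025 CPM. Per barcode the median share was 5.66% (quartiles 3.83 and 8.16) and 4.398% (2.64 and 6.48). A share below 1% was found in 4 of 842 untreated small barcodes and in 84 of 1582 with P-G3, the latter with a median of 4444 UMIs. Of those 84, 10 had under 2% mt- UMIs. In large cells a share below 1% was the common state, at 81.1% and 86.3%.

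**Figure D1:**
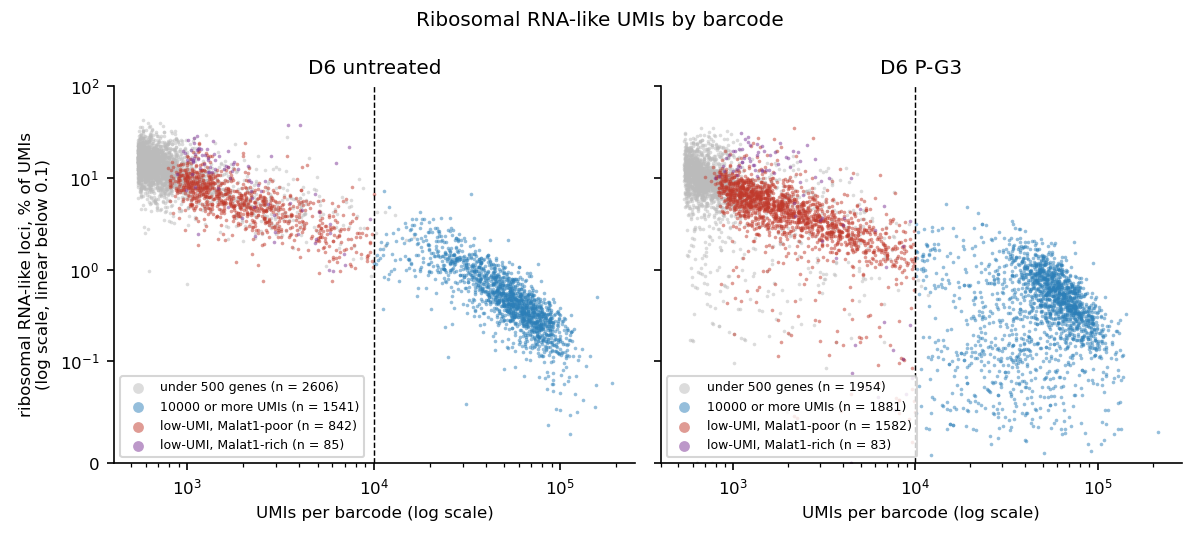
Each point is 1 day 6 barcode, with UMIs on a log axis and the share of UMIs from ribosomal RNA-like loci on a log axis that is linear below 0.1%. The dashed line is the limit of 10000 UMIs. Across small barcodes (red) the share is lower at higher UMIs, going from 9.38% to 2.54% and from 7.99% to 1.71% between the lowest and highest UMI bins, and a scatter of points below 1% appears mostly with P-G3.

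Adipocyte genes were present throughout the small barcodes. The summed share of 25 adipocyte identity genes was 4.54% in small barcodes and 3.87% in large cells without treatment, and 4.05% and 4.54% with P-G3. Between 500 and 10000 UMIs it stayed between 4.23% and 4.76% over the 5 UMI bins of the untreated library, and between 3.83% and 4.37% with P-G3. In barcodes under 500 genes it was 2.70% and 2.16%. There mt- genes took 44.2% and 41.9% of UMIs, against 6.60% and 4.31% in small barcodes. These shares of all UMIs are therefore not directly comparable. Most of the share is Fabp4, and single members differed. Of 21 measured members 5 were higher and 13 lower in both libraries, with a median log2 ratio of -0.31 and -0.49. This split is near that of all genes. Of the 4684 genes that reached 20 CPM in both libraries, 25% were higher and 54% lower in both, with medians of -0.26 and -0.14. The untreated median changed sign with TMM scaling (0.14), and both did against cells of 10000 to 30000 UMIs (1.04 and 0.72). Pparg, the nuclear receptor that drives adipogenesis, lay at 314 against 246 CPM and at 316 against 285 CPM. Plin1, the coat protein of large lipid droplets, lay at 205 against 216 CPM and at 193 against 212 CPM. Lpl, a secreted lipase, and Cd36, which takes up fatty acids, were lower in the small barcodes of both libraries. Lpl lay at 2867 against 6045 CPM and at 1776 against 4539 CPM, and Cd36 at 106 against 245 CPM and at 56.2 against 169 CPM. Markers of other cell types were near 0. The macrophage and dendritic list summed to 4 and 12 UMIs, the lymphocyte list to 0 and 1, the endothelial list to 8 and 21, and the erythroid and platelet list to 0 in both. The neural list summed to 12 and 17 UMIs and the skeletal muscle list to 93 and 181. The epithelial list summed to 112 and 222 UMIs, of which 72 and 102 were Krt19 (keratin 19), and 4 of its 8 genes had no UMI in each library. Krt19 lay at 34.6 against 10.2 CPM and at 24.8 against 11.7 CPM.

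Adipoq, which encodes adiponectin, Cfd, which encodes adipsin, and Retn, which encodes resistin, are 3 genes of secreted proteins chosen after their values were seen. In large cells Adipoq lay at 462 CPM without and 870 CPM with the polymer, and in the small barcodes at 384 and 353 CPM. Cfd lay at 899 and 1569 CPM in large cells and at 1031 and 740 CPM in small barcodes. Retn lay at 1222 and 1690 CPM in large cells and at 1147 and 945 CPM in small barcodes. In large cells all 3 were higher with P-G3. In small barcodes the log2 ratio of P-G3 to untreated was -0.48 (-0.56 to -0.40) for Cfd and -0.28 (-0.35 to -0.21) for Retn, while the interval for Adipoq, -0.12 (-0.25 to 0.0034), included 0. The list of acute phase and secreted adipokines had P-G3 to untreated medians of -0.34 in large cells (13 genes) and -0.39 in small barcodes (12 genes). The difference between the classes was not tested.

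Across the transcriptome the small barcodes lacked many genes and gained few. In both libraries 4684 genes reached 20 CPM in 1 class or both. Of these, 5 (0.107%) were at least 2-fold higher in the small barcodes of both libraries, and 432 (9.22%) were at least 2-fold lower. The 5 were AY036118, Lars2, Gm42418, Krt19 and Cyb5r3. The first 3, all ribosomal RNA-like loci, kept this call in all 20 alternatives. Cyb5r3 was not called in 4 of them: at 10% mt- UMIs or less, at 1000 or more genes, at 2500 or more UMIs and against cells of 10000 to 30000 UMIs. Krt19 was not called in 8, among them below 5000 UMIs, with a floor of 50 CPM and with the length trend removed. In the untreated library alone 18 of 5582 genes (0.322%) were higher and 1258 (22.5%) lower. With P-G3, 7 of 4772 (0.147%) were higher and 557 (11.7%) lower. Counting any size of difference, 25% of genes were higher and 54% lower in both libraries. The split depends on how the classes are scaled to each other: the median log2 ratio of all genes was -0.40 (5582 genes) and -0.13 (4772 genes) with scaling to total UMIs, and TMM scaling shifts every ratio up by 0.46 and 0.21. With TMM scaling 9 genes were higher and 194 lower, and with median-of-ratios scaling 15 and 158. Lists use only the 4684 genes past the floor in both libraries. The medians of those genes were -0.26 without treatment and -0.14 with P-G3 under scaling to total UMIs, and lists are read against these.

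**Figure D2:**
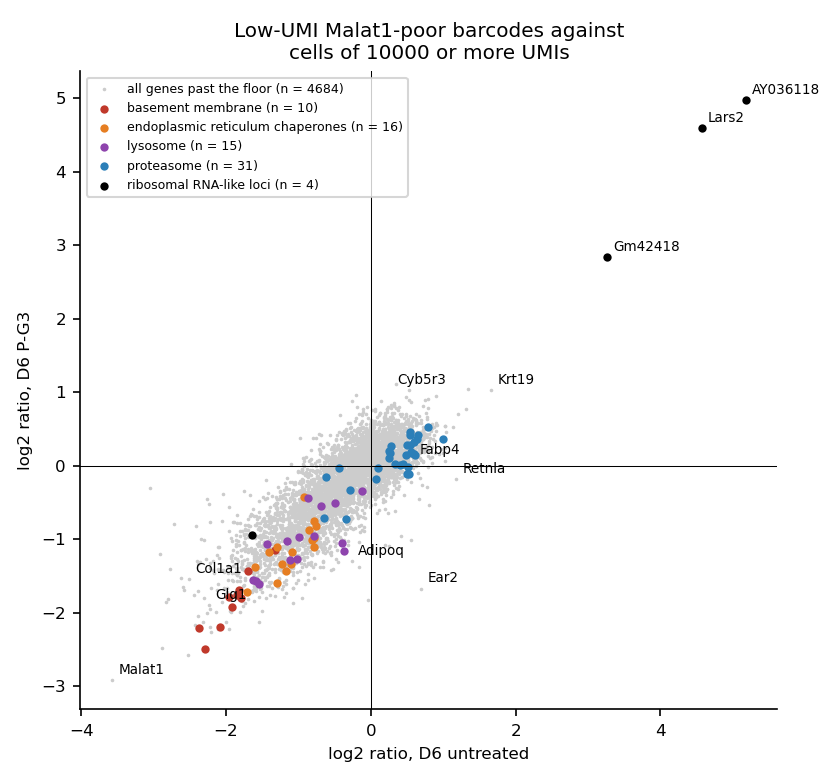
Each point is 1 of the 4684 genes, with its log2 ratio of small barcodes to large cells in the untreated library on the x axis and in the P-G3 library on the y axis. Ribosomal RNA-like loci (black) lie far to the upper right except for 1, and all measured basement membrane, ER chaperone and lysosome genes lie below 0 in both libraries, while most proteasome genes lie above 0.

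The lower genes were led by RNAs for secreted and membrane proteins. The 15 lowest named genes comprised 9 genes of the extracellular matrix (Fn1, Fbln2, Col6a3, Lama4, Col1a2, Vcan, Lamb1, Col4a1 and Col6a2) and 6 others of the secretory route or cell surface (Lgals3bp, Slc1a3, Glg1, Sel1l, Itga6 and Rpn1). Fn1, fibronectin, lay at 61.1 CPM in small barcodes against 290 CPM in large cells, and at 28.9 against 136 CPM with P-G3, a log2 ratio of -2.23 (interval -2.51 to -1.99) and -2.20 (-2.51 to -1.98). Glg1, a Golgi glycoprotein, lay at 18.3 against 89.9 CPM and at 16.3 against 63.2 CPM. Sel1l, part of the machinery that removes misfolded proteins from the ER, lay at 23.1 against 99.6 CPM and at 16.05 against 60.4 CPM. Itga6, an integrin, lay at 65.0 against 229 CPM and at 44.7 against 181 CPM. In each of these genes both small classes were below both large classes.

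By list, all 10 measured basement membrane genes of 15 listed were at least 2-fold lower in both libraries, with a median log2 ratio of -1.88 and -1.80. Hspg2, perlecan, lay at 19.7 against 106 CPM and at 8.996 against 45.3 CPM. Of 19 measured matrix and preadipocyte genes, 15 were at least 2-fold lower in both libraries, with medians of -1.92 and -1.39. Matrix genes mark preadipocytes, and here the cells chosen for comparison matter. Against large cells whose adipocyte identity share is at or above their library's median, the matrix median was -0.66 and -0.62, and Col1a1 changed sign, from -2.51 to 0.17 without treatment and from -1.55 to 0.56 with P-G3. The basement membrane median stayed at -1.60 and -1.67 against those cells. Genes that pass the floor only through the large cells had to be lower, so these counts describe the measured members only.

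RNAs of the ER machinery were lower together. All 16 measured ER chaperones and folding enzymes of 20 listed were lower in both libraries, 9 of them at least 2-fold, with medians of -1.10 and -1.14. Of all 4684 genes 54% were lower in both and 9.22% at least 2-fold. Members past the floor only through large cells had to be lower, so the counts in this paragraph describe measured members only. Summed over all 20 listed genes, without a floor, the chaperones took 0.207% of UMIs in small barcodes and 0.449% in large cells untreated. With P-G3 they took 0.144% and 0.330%. Hsp90b1, the ER form of HSP90, lay at 160 against 529 CPM and at 142 against 469 CPM. Hspa5, the ER chaperone BiP, lay at 260 against 638 CPM and at 179 against 544 CPM. Of 19 genes for the translocon and the oligosaccharyltransferase, which admit and glycosylate new proteins, 18 were lower in both libraries and 7 at least 2-fold, with medians of -0.90 and -0.92. This list was chosen after its values were seen. Sec61a1, the channel of the translocon, lay at 36.6 against 146 CPM and at 26.5 against 79.5 CPM. Its small partner Sec61g lay at 666 against 686 CPM and at 598 against 582 CPM, the exception in that list. All 15 measured lysosome genes of 20 listed were lower in both libraries, 7 at least 2-fold, with medians of -0.99 and -1.05. Psap, the precursor of the saposins, lay at 126 against 370 CPM and at 71.7 against 220 CPM. Against the large cells richer in adipocyte identity genes the ER chaperone medians were -0.98 and -1.02 and the lysosome medians -0.72 and -0.78.

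Genes of triglyceride and fatty acid synthesis were also lower. All 11 measured triglyceride synthesis genes were lower in both libraries, 4 at least 2-fold, with medians of -0.88 and -0.57. Dgat1, which makes triglyceride from diacylglycerol, lay at 115 against 238 CPM and at 113 against 272 CPM. Of 14 measured fatty acid synthesis genes 12 were lower in both, 4 at least 2-fold, with medians of -0.78 and -0.89. In both lists, members past the floor only through large cells had to be lower. Of all 4684 genes 54% were lower in both libraries and 9.22% at least 2-fold. Scd2, a stearoyl-CoA desaturase, lay at 341 against 1054 CPM and at 250 against 626 CPM. Against cells of 10000 to 30000 UMIs, which held a smaller share of adipocyte identity UMIs (1.92% and 2.26%), the triglyceride synthesis medians changed sign to 0.16 and 0.26, and the untreated fatty acid synthesis median to 0.05.

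Splicing factor RNAs that are partly held in the nucleus were lower as well. Of 21 measured splicing factor genes known for transcripts held in the nucleus, 20 were lower in both libraries and 4 at least 2-fold, with medians of -0.64 and -0.55. With the length trend removed these medians were -0.15 and -0.28. Son, a speckle protein, lay at 86.1 against 205 CPM and at 77.1 against 170 CPM. Immediate early genes are a separate list, not marked as held in the nucleus. Of 12 measured members 10 were lower in both libraries, 0 of them at least 2-fold in both, with medians of -0.90 and -0.59. Summed over every listed gene found, without a floor, they took 0.0758% of UMIs in small barcodes and 0.125% in large cells untreated. With P-G3 they took 0.0683% and 0.0738%. In this list and the splicing list, members past the floor only through large cells had to be lower, and 54% of all 4684 genes were lower in both libraries. Egr1 lay at 32.2 against 128 CPM and at 15.3 against 29.2 CPM.

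Several lists of cytosolic and mitochondrial proteins were higher by small amounts. Of 83 cytosolic ribosomal protein genes 71 were higher in both libraries, none by 2-fold, with medians of 0.14 and 0.16. Against cells of 10000 to 30000 UMIs these medians changed sign, to -0.10 and -0.19. Of 31 proteasome genes 21 were higher in both libraries, with medians of 0.49 and 0.14, and these medians were above 0 in all 20 alternatives. Psmc2, an ATPase of the proteasome cap, lay at 227 against 131 CPM and at 237 against 165 CPM. Psmd1, a large scaffold of the same cap, was an exception at 83.2 against 131 CPM and at 69.5 against 115 CPM. Of 16 measured genes for mitochondrial fatty acid oxidation 12 were higher in both libraries, with medians of 0.59 and 0.30, and of 8 cytosolic chaperonin genes 7 were higher in both, with medians of 0.34 and 0.35. The last 2 lists were chosen after their values were seen. Of 78 nuclear genes of respiration 30 were higher and 6 lower in both libraries, with medians of 0.23 and -0.05. Decr1, which breaks down unsaturated fatty acids, lay at 259 against 137 CPM and at 255 against 173 CPM. Among 23 citric acid cycle genes 15 were higher and 5 lower in both libraries, with medians of 0.44 and 0.13, the latter changing sign in 1 alternative. Suclg1, a succinyl-CoA ligase subunit, lay at 754 against 425 CPM and at 789 against 560 CPM, while Ogdh, a long subunit of the oxoglutarate dehydrogenase, lay at 38.0 against 87.0 CPM and at 35.3 against 72.1 CPM.

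The 15 highest named genes were Lars2 and 14 others that differed by small factors. Cyb5r3, a cytochrome b5 reductase, lay at 567 against 224 CPM and at 339 against 163 CPM, a log2 ratio of 1.34 (1.26 to 1.43) and 1.05 (0.97 to 1.13). Ppa1, an inorganic pyrophosphatase, lay at 877 against 381 CPM and at 949 against 582 CPM. Selenbp1, a methanethiol oxidase, lay at 61.6 against 24.2 CPM and at 90.4 against 52.4 CPM. Asns, asparagine synthetase, lay at 463 against 274 CPM and at 467 against 284 CPM, and Ddit3, the stress factor CHOP, at 475 against 278 CPM and at 453 against 285 CPM. The 22 listed ATF4 targets to which both belong had medians of -0.21 and -0.02 over 18 measured members, of which 7 were higher and 9 lower in both libraries. Of the rest, Cenpb, Lyplal1, Cox7a2l, Tst, Cct4, Cct8, Idh3b and Mta3, had log2 ratios between 0.59 and 0.91 in both libraries.

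**Figure D3:**
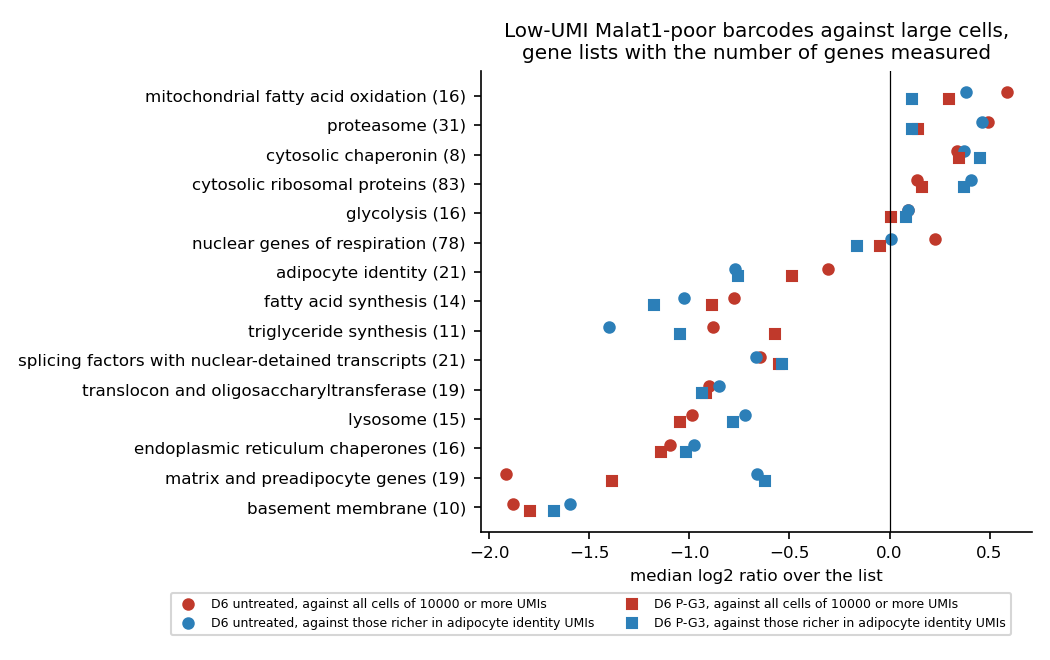
Median log2 ratio of small barcodes to large cells for each list, with circles for the untreated and squares for the P-G3 library. Red marks compare with all large cells and blue marks with the large cells richer in adipocyte identity UMIs: the matrix list moves from -1.92 and -1.39 to -0.66 and -0.62, while the basement membrane and ER chaperone lists stay at or below -0.98.

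Longer transcripts had lower ratios. Across 5580 genes of the untreated library the log2 ratio and the length of the longest protein-coding transcript had a Spearman correlation of -0.59, and across 4770 genes with P-G3 a correlation of -0.39. Both classes of a library share its preparation, and genes are not independent, so these are descriptions. In the shortest of 10 length bins the median log2 ratio was 0.07 and -0.02, and in the longest -1.13 and -0.74. When the median over genes of like length, in 20 bins, was subtracted, the ER chaperone medians were -0.68 and -1.04, the basement membrane medians -0.99 and -1.28 and the proteasome medians 0.45 and 0.15. The count of genes lower in both libraries was then 117, and of genes higher 26. The part of length in each list's difference was not tested further.

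**Figure D4:**
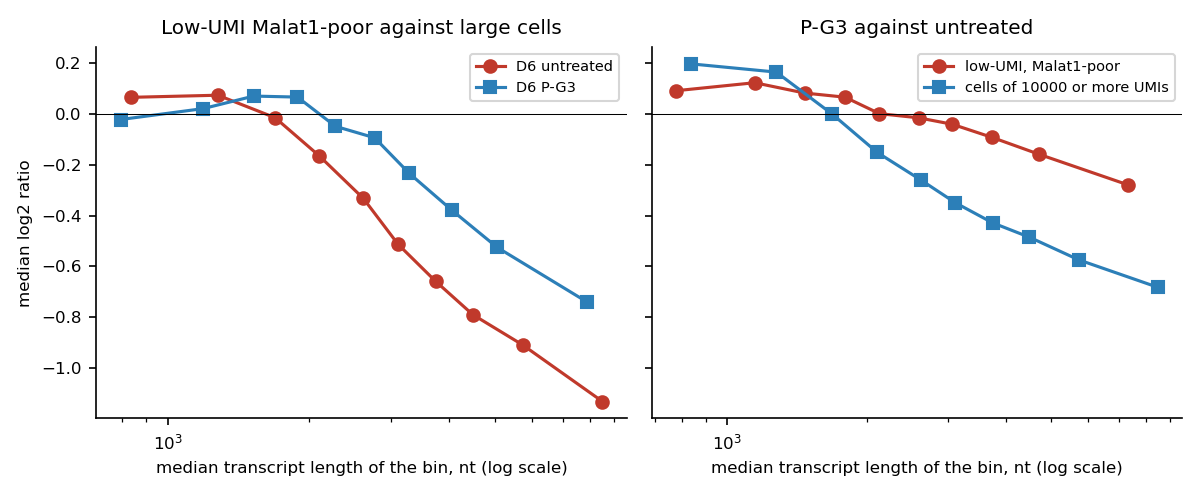
Median log2 ratio in 10 bins of transcript length, with the median length of each bin on a log axis. On the left, small barcodes against large cells go from 0.07 to -1.13 untreated and from -0.02 to -0.74 with P-G3. On the right, P-G3 against untreated goes from 0.09 to -0.28 in small barcodes and from 0.20 to -0.68 in large cells.

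The small barcodes were not uniform, and their mt- share separated them. The share of UMIs from mt- genes in the summed class was 6.60% against 7.19% in large cells without treatment, and 4.31% against 6.05% with P-G3. The rule capped this share at 20% but used it in no other way. Fewer than 2% mt- UMIs were found in 158 small barcodes (18.8%) without treatment and in 512 (32.4%) with P-G3, against 2.01% and 3.46% of large cells. After every barcode of at least 1000 UMIs was thinned to 1000 UMIs, which left out 86 and 151 small barcodes and no large cell, the variance-to-mean ratio of mt- UMIs was 41.4 and 39.4 in small barcodes and 18.2 and 16.6 in large cells. For adipocyte identity UMIs the order was the other way, 14.9 and 12.7 against 19.2 and 17.1. Thinned small barcodes had a median of 543.5 and 543 detected genes, and thinned large cells 619 and 584.

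Small barcodes rich in mt- RNA were also richer in RNAs of the secretory route. Barcodes with 10% or more mt- UMIs (205 and 192) were compared with those under 2% (158 and 512), with levels as CPM of UMIs outside mt- genes. Their median UMIs were 1716 against 2289.5 without treatment and 1631 against 2572 with P-G3. Of 2415 genes that reached 50 CPM in 1 set or both, in both libraries, 124 (5.13%) were at least 2-fold higher in the mt- rich barcodes of both libraries and 31 (1.28%) at least 2-fold lower, with a median over all these genes of -0.20 and -0.16. Counting any size, 27.5% were higher and 52.3% lower in both. All 11 measured matrix genes were higher in both, 9 of them at least 2-fold, as were all 5 measured basement membrane genes, each at least 2-fold, and all 11 measured lysosome genes, 6 at least 2-fold. Of 11 measured ER chaperones 9 were higher in both libraries, 4 at least 2-fold. A member that reached 50 CPM only in the mt- rich barcodes had to be higher, which holds in at least 1 library for 6 of the 11 matrix, 4 of the 5 basement membrane, 5 of the 11 lysosome and 5 of the 11 chaperone genes, so these counts describe the measured members only. The sums over every listed gene use no such floor. By these, the matrix list took 0.343% of UMIs outside mt- genes in the mt- rich and 0.0864% in the mt- poor barcodes without treatment, and 0.336% and 0.0901% with P-G3. The basement membrane list took 0.140% and 0.0328%, and 0.123% and 0.0253%. The lysosome list took 0.351% and 0.164%, and 0.369% and 0.147%, and the ER chaperones took 0.281% and 0.172%, and 0.256% and 0.0879%. In large cells the ER chaperones also took more in the mt- rich set, 0.546% and 0.380%, and 0.405% and 0.191%. The matrix list took less there, 0.487% and 1.34%, and 0.295% and 0.416%. The basement membrane list took 0.275% and 0.349%, and 0.159% and 0.154% in large cells. The lysosome list there took 0.389% and 0.443%, and 0.412% and 0.326%. In small barcodes adipocyte identity genes took nearly equal summed shares, 5.11% and 4.97%, and 3.94% and 4.17%, most of it Fabp4. Single members differed: of 20 measured, 11 were higher and 7 lower in the mt- rich barcodes of both libraries. At least 2-fold higher in both were 4 (20%, against 5.13% of all 2415 genes), and 0 were as much lower. For 1 of the 20, 50 CPM was not reached in the mt- poor barcodes of both libraries.

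Type I collagen RNAs followed the mt- share in opposite directions in the 2 classes. Col1a1 lay at 10.2 CPM in small barcodes under 2% mt- UMIs and at 158 CPM in those of 10% to 20% without treatment, and at 10.9 and 149 CPM with P-G3. Its level in small barcodes under 2% mt- UMIs rests on 5 UMIs untreated and 18 with P-G3. In large cells Col1a1 lay at 1115 and 115 CPM, and at 210 and 34.4 CPM. Col1a2 lay at 36.7 and 236 CPM in small barcodes and at 1854 and 333 CPM in large cells of the untreated library, and at 29.6 and 256 CPM and at 391 and 137 CPM with P-G3. Col4a1, a basement membrane collagen, went from 65.3 to 325 CPM and from 39.2 to 229 CPM in small barcodes, and lay at 723 and 737 CPM and at 329 and 335 CPM in large cells. The size of the difference for type I collagen depends on the deepest small barcodes. Below 5000 UMIs the log2 ratio of Col1a1 between mt- rich and mt- poor barcodes was 2.38 and 1.43, compared with 4.04 and 3.85 below 10000 UMIs. Large cells under 2% mt- UMIs numbered only 31 and 65, with median UMIs of 26766 and 20759, against 61120 and 51406 in those of 10% to 20%. The former held 2.37% and 3.90% adipocyte identity UMIs, and the latter 5.22% and 5.29%. The part of these differences in the collagen levels was not tested.

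RNAs known from fibroblast protrusions were higher in the mt- rich small barcodes. Their levels here are again CPM of UMIs outside mt- genes. Cyb5r3 lay at 231 CPM in mt- poor and 1249 CPM in mt- rich small barcodes without treatment, a log2 ratio of 2.43 (2.14 to 2.74), and at 201 and 1057 CPM with P-G3, a ratio of 2.39 (2.18 to 2.60). In large cells its ratio was -0.10 (-0.28 to 0.08) and -0.20 (-0.36 to -0.04). Ddr2, a collagen receptor, lay at 4.13 and 78.0 CPM, and at 3.05 and 59.7 CPM, in small barcodes. Its ratio of 3.95 (2.28 to 7.34) without treatment rests on 2 UMIs against 35. Kif1c, a kinesin motor, lay at 16.5 and 105 CPM and at 15.2 and 95.5 CPM. Rab13, a small GTPase, lay at 24.8 and 107 CPM and at 11.0 and 40.6 CPM, and Net1, a guanine nucleotide exchange factor, at 37.1 and 125 CPM and at 16.5 and 110 CPM. The list of 9 such RNAs was chosen after values were seen. Summed over all 9, it took 0.210% of UMIs outside mt- genes in mt- rich and 0.0571% in mt- poor small barcodes without treatment, and 0.171% and 0.0491% with P-G3. In large cells it took 0.0867% and 0.0661%, and 0.0590% and 0.0495%. Its 5 measured members were Cyb5r3, Ddr2, Kif1c, Net1 and Dynll2. Ddr2, Kif1c and Net1 reached 50 CPM only in the mt- rich barcodes of both libraries and had to be higher there. Dynll2, a dynein light chain, differed by under 2-fold, at 252 and 359 CPM and at 240 and 277 CPM. In large cells Net1 also had a ratio above 1, at 1.05 and 1.14, and Dynll2 had 0.95 and 0.41. Rab13 did not reach 50 CPM with P-G3 and is not among the 5. Sh3pxd2a, a scaffold of invasive protrusions that was not on the list, lay at 39.2 and 479 CPM and at 37.8 and 322 CPM. Cenpb, centromere protein B, lay at 68.1 and 392.5 CPM and at 61.6 and 279 CPM.

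Scd1, the main stearoyl-CoA desaturase of adipocytes, was higher at higher mt- share in both classes. As CPM of all UMIs it lay at 847, 1702, 2516 and 5125 CPM in untreated small barcodes with 0 to 2%, 2 to 5%, 5 to 10% and 10 to 20% mt- UMIs, and at 391, 725, 1414 and 2859 CPM with P-G3. In large cells the lowest and highest of these bins lay at 345 and 7590 CPM, and at 826 and 2969 CPM. In the same contrast 27 of 31 proteasome genes, 63 of 74 mitochondrial ribosomal protein genes and all 8 chaperonin genes were lower in the mt- rich small barcodes of both libraries, none by 2-fold, with medians between -0.35 and -0.48. Of all 2415 genes 1263 (52.3%) were lower in both. The same lists had medians in large cells of -0.32 and -0.18, of 0.05 and -0.04 and of -0.75 and -0.43. Gadd45a, a growth arrest gene, lay at 137 and 26.6 CPM in the lowest and highest bin without treatment and at 91.8 and 18.6 CPM with P-G3.

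**Figure D5:**
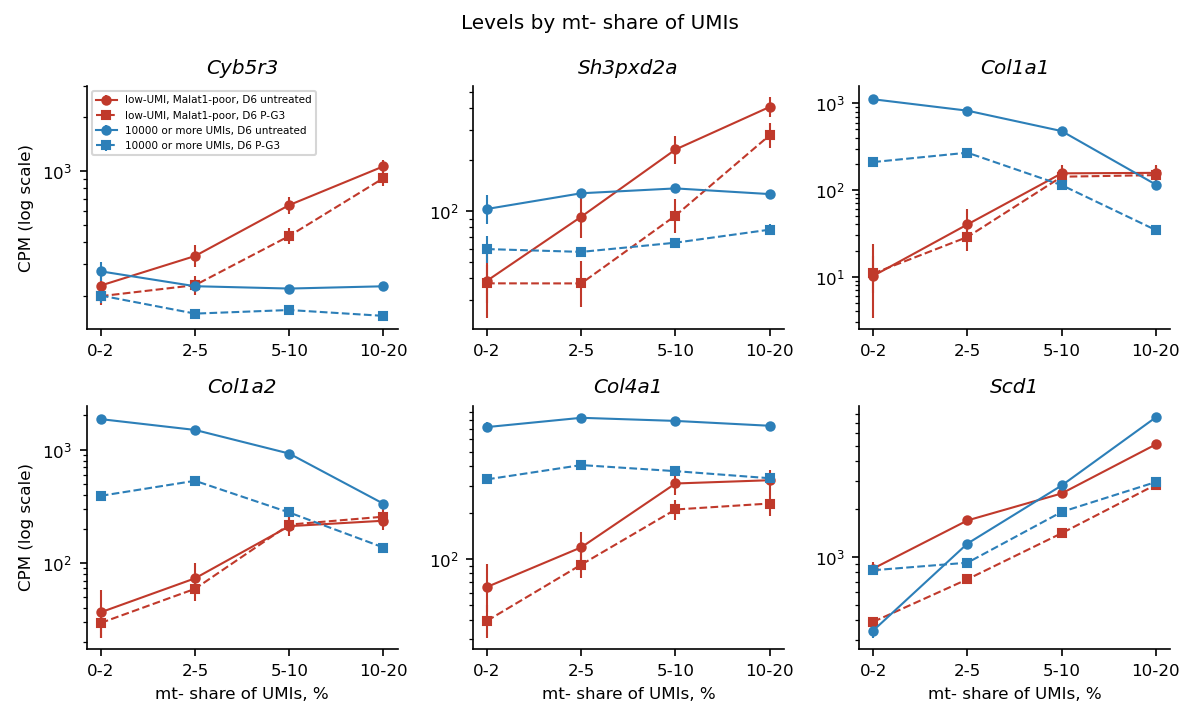
Level of 6 genes (CPM, log axis) in 4 bins of mt- share, with exact Poisson 95% intervals, for small barcodes (red) and large cells (blue) of the untreated (solid) and P-G3 (dashed) libraries. Cyb5r3 climbs along the red lines, from 229 to 1064 CPM untreated, and not along the blue ones, the type I collagens climb along the red lines and end lower than they start along the blue ones, and Scd1 climbs along both colours.

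P-G3 and untreated small barcodes were close in most genes. Among 4304 genes that reached 20 CPM in 1 library or both, 0 (0%) were higher by 2-fold or more with P-G3 and 44 (1.02%) were lower by as much. With 1 library a side there is no test to set beside the count of 0. TMM scaling gave 2 higher and 31 lower. In large cells 8 of 5578 genes (0.143%) were higher and 195 (3.50%) lower. These libraries stand for the treatment and for everything else that differed between the cultures, which cannot be told apart.

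The lowest genes with P-G3 included secreted proteins and a protrusion RNA. Retnla, a resistin-like secreted protein, lay at 184 CPM without and 41.6 CPM with P-G3 in small barcodes, and at 80.4 and 47.4 CPM in large cells. Lcn2, the acute phase protein lipocalin 2, lay at 326 and 91.7 CPM in small barcodes and at 244 and 179 CPM in large cells. Ang5 and Ear2, secreted ribonucleases, lay at 69.8 and 17.5 CPM and at 89.5 and 23.6 CPM in small barcodes, and at 71.8 and 65.0 CPM and at 54.8 and 77.3 CPM in large cells. Ang5 and Ear2 belong to a family of closely related genes, whose reads may be divided between copies. Scd1 lay at 2558 and 980 CPM in small barcodes and at 3230 and 1586 CPM in large cells, a log2 ratio of -1.38 (-1.44 to -1.33) and -1.03. Rab13 lay at 50.04 and 16.05 CPM in small barcodes and at 19.7 and 11.2 CPM in large cells. Sh3pxd2a lay at 192 and 77.1 CPM in small barcodes and at 131 and 62.8 CPM in large cells. The remaining genes of the 10 lowest were Sptbn1, Prrc2c and Myh9, with log2 ratios of -1.59, -1.26 and -1.21. In large cells their ratios were -1.27, -0.66 and -1.37. The small barcodes of the P-G3 library held fewer mt- UMIs (4.31% against 6.60%), and Scd1, Rab13 and Sh3pxd2a were all higher at high mt- share within each library. The part of the mt- share in these differences was not tested.

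The 10 highest genes with P-G3 in small barcodes were Sept6, Aimp2, Anxa8, Tmem216, Isg20, Gng10, Eef2kmt, Gmds, Znrd1 and Cbr2, with log2 ratios between 0.63 and 0.87. Sept6, a septin of the cytoskeleton, lay at 32.7 and 60.5 CPM in small barcodes and at 50.01 and 57.2 CPM in large cells. Anxa8, an annexin, lay at 201 and 332 CPM, and at 164 and 262 CPM in large cells. Cbr2, a carbonyl reductase, lay at 140 and 216 CPM, and at 110 and 247 CPM in large cells. Over lists, the P-G3 to untreated median in small barcodes was -0.56 for 7 measured basement membrane genes, -0.53 for 16 ER chaperones and -0.42 for 16 matrix genes, beside -0.01 for all 4304 genes. It was 0.24 for 83 cytosolic ribosomal protein genes and 0.04 for 31 proteasome genes. Adipocyte identity genes had a median of -0.08 over 20 measured members, none of them 2-fold different. In large cells the medians were -0.73 for 12 basement membrane genes, -0.46 for 18 ER chaperones and -0.99 for 23 matrix genes. All 5578 genes there had a median of -0.25. Cytosolic ribosomal protein genes had 0.21 in large cells, proteasome genes 0.29 and adipocyte identity genes -0.005. The difference between the classes was not tested.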

How the data were processed

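Single-cell RNA sequencing of 3T3-L1 cells gave 5 libraries, 1 for each group. The authors deposited UMI counts per gene and barcode for barcodes already called as cells, with no normalization. Cell Ranger appears as 3.1.0 in the submitters' processing notes, with the build GRCm38, but as 5.0.1 per the file headers, and which was used is uncertain. No annotation release is given in the sources used here. The labels' protocols name the v2 chemistry.

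Counts were summed over the barcodes of a class in a library and expressed as CPM with Python 3.11.15 (numpy 2.4.6, scipy 1.17.1). Before a log2 ratio was taken, 1 CPM was added on both sides, so low genes appear less different than they were. A gene counted as different at 2-fold or more with 20 CPM or more in either class. Intervals are exact: Poisson for levels, conditional binomial for ratios and Clopper-Pearson for shares. TMM factors came from edgeR 4.0.16 in R 4.3.3, used for scaling only. Thinning drew 1000 UMIs without replacement. Transcript lengths came from GENCODE vM21 (32158 of 32285 genes). Calls and intervals were tried on simulated Poisson counts with known changes. Such counts hold no spread between barcodes beyond counting error, so the trial checks the arithmetic and not the coverage of that spread.

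Named genes were the 15 highest and 15 lowest by the smaller of both libraries' absolute log2 ratios, among genes with 50 CPM or more and the same direction under 3 scalings, and the 10 highest and 10 lowest for P-G3. Genes of mt- type, ribosomal protein genes, Malat1 and unnamed models were left out of the ranking, and Fabp4, Lars2, Cidec, Malat1, Adipoq, Scd1, Pparg, Col1a1 and Neat1 were always included. For each list 2 to 4 leading members were named. Other genes were chosen after their values were seen, as was the contrast by mt- share. The members, the 42 lists and the rules were chosen with earlier results of these data known, and 5 lists were added later. No doublets were removed. No profile of empty droplets was used. 1 gene that the rule named is not reported here.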

Additional observations from a re-analysis of the deposited data

Results flagged for a closer look

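In 3 named genes the small barcodes and large cells differed in opposite directions in the 2 libraries, with counting intervals that leave out 0. Ear2 had a log2 ratio of small barcodes to large cells of 0.70 (0.49 to 0.92) without treatment and -1.67 (-2.02 to -1.42) with P-G3. Lcn2 had ratios of 0.42 (0.31 to 0.53) and -0.96 (-1.12 to -0.82). Cbr2 had ratios of 0.34 (0.17 to 0.51) and -0.19 (-0.29 to -0.10). Each library is 1 sample, so these differences were not tested.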

How the results depend on the processing

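With total-count scaling, 5 genes were higher and 432 lower in the small barcodes of both libraries. The count of higher genes was 9 with TMM, 15 with median-of-ratios scaling, 9 with a floor of 5 CPM, 10 with no floor, 82 against cells of 10000 to 30000 UMIs, 8 against cells richer in adipocyte identity UMIs and 26 with the length trend removed. The count of lower genes was 194 with TMM, 158 with median-of-ratios scaling, 933 with a floor of 5 CPM, 172 with a floor of 50 CPM, 1100 with no floor and 117 with the length trend removed. For P-G3 against untreated small barcodes (0 higher, 44 lower), the count of higher genes was 2 with TMM, median-of-ratios scaling or a pseudocount of 0.1, 41 with a floor of 5 CPM, 202 with no floor, 5 with equal weight for each barcode, 7 below 5000 UMIs, 3 at 10% mt- UMIs or less, 13 at 1000 or more genes or at 2500 or more UMIs, and 1 with the length trend removed. The count of lower genes was 70 with totals without mt-, Malat1 and ribosomal RNA-like loci, 199 with a floor of 5 CPM, 24 with a floor of 50 CPM, 333 with no floor, 23 with a pseudocount of 5, 111 at 1000 or more genes, 71 at 2500 or more UMIs and 25 with the length trend removed. Requiring 1000 genes left 266 and 544 small barcodes. Adipoq changed sign without treatment, from -0.27 to 0.19 with TMM, 0.27 with median-of-ratios scaling and 1.49 against cells of 10000 to 30000 UMIs, and with P-G3 to 0.24 in the last of these. Col1a1 changed sign to 0.17 and 0.56 against cells richer in adipocyte identity UMIs. For these changes the cause was not tested, except that floors change how many genes are counted. The medians of the basement membrane, ER chaperone, lysosome and matrix lists stayed below 0 in all 20 alternatives. The comparisons with richer cells, with the length trend removed, from 2500 UMIs and with mt- genes in the totals were chosen after seeing the data. No paired analysis was possible because each group is 1 library. The small barcodes' depth limits single genes: 3 counts stand for 1.44 and 0.729 CPM.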
